A study of Mus musculus with 4 samples.

Results

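The lateral septum was described here as 218 of 10948 spots on 4 sections of mouse brain. Per section, spots under tissue with at least 2000 unique molecular identifiers (UMI, 1 per captured molecule) were ranked by the summed UMI share of Zic1, Trpc4, Prdm12 and Dgkg, and the top 2% were taken. These are called septal spots below, and the other 10730 are the remaining spots. The spots were selected on the measured values of these 4 genes, which are therefore given as a description and were left out of every comparison.

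Gene expression was captured on Visium arrays from formalin-fixed, paraffin-embedded brain sections of 5 µm, with 2 sections of rNLS8 mice and 2 of control mice. All 4 samples are labelled as taken from mice 11 weeks old under the same treatment, doxycycline withdrawal, 3 weeks before sampling. rNLS8 mice carry an inducible human TDP-43 without a working nuclear import signal, driven in neurons through the Nefh promoter and held off by doxycycline. The genotype of the control mice beyond "Control" is not given in the sources used here. Replicate 1 of each group is labelled female and replicate 2 male, and no label says whether the sections came from separate animals. The p-values below therefore measure the spread between these sections.

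The lateral septum lies between the lateral ventricles, medial to the striatum. It is made up mostly of GABAergic projection neurons that receive hippocampal input and send axons to the hypothalamus and brainstem, and it is known for its part in social, fear and feeding behaviour. It is rich in neuropeptides such as neurotensin and somatostatin and in receptors for hormones and peptides. A Visium spot is a small region that can hold several cells, so no value below belongs to 1 cell type, and fewer cells of a type and less RNA per cell cannot be told apart.

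The rule took 59, 52, 52 and 55 spots in rNLS8 1, rNLS8 2, Control 1 and Control 2. They held 499531 and 368842 UMI in the rNLS8 sections, against 304809 and 591489 UMI in the control sections, and 1 UMI was worth 2.00, 2.71, 3.28 and 1.69 CPM (counts scaled to 1000000 UMI) in the same order of sections. The share of the selecting genes at the last spot inside the limit was 13.8 per 10000 UMI in rNLS8 1, 11.1 in rNLS8 2, 18.1 in Control 1 and 17.6 in Control 2. The first spot outside held 13.6, 11.1, 17.8 and 17.6. The limit thus fell within a continuous range of shares and stood lower in both rNLS8 sections. Zic1, a zinc-finger transcription factor, supplied most of the share, at 1473 and 1320 CPM in rNLS8 septal spots and 1955 and 2130 CPM in control septal spots. Elsewhere Zic1 lay between 122 and 154 CPM.

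Before the results, 3 features of the sections bear on what follows. First, 1 library went against its label. Summed over Ddx3y, Eif2s3y, Kdm5d and Uty, all Y-linked, rNLS8 1 held 137 CPM and rNLS8 2 held 139 CPM, while Control 1 held 0 and Control 2 held 107 CPM. The library labelled rNLS8 1 and female therefore carried Y-linked reads at the level of the male sections, and both rNLS8 sections but only 1 control section carried them. Tardbp, the gene that encodes TDP-43, had 197 and 138 UMI over the whole rNLS8 sections and 0 in either control section. It had 3 and 1 UMI in rNLS8 septal spots against 0 and 0 in control septal spots, where a count of 0 allows up to 3 UMI. The probe set is not given, so it is not known here whether these counts read the mouse gene, the human transgene or both. The 0 in control sections is therefore not read as absence of mouse Tardbp RNA. At these counts Tardbp checks the labels over the sections and gives no level for the septum.

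Second, the septal spots formed a compact patch in Control 2 and a less compact one elsewhere. The largest piece of touching spots held 23 of 59 spots in rNLS8 1, 32 of 52 in rNLS8 2, 31 of 52 in Control 1 and 53 of 55 in Control 2. In pieces of at least 5 spots lay 48, 32, 31 and 53 spots. The patch lay medial to the spots richest in striatal genes, as the map of spots shows, and the rest was scattered, in part along the tissue edge. Leaving Zic1 out of the rule broke up the patch. The share of septal spots in the largest piece was then 12.4%, against 63.8% under the rule as used.

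**Figure D1:**
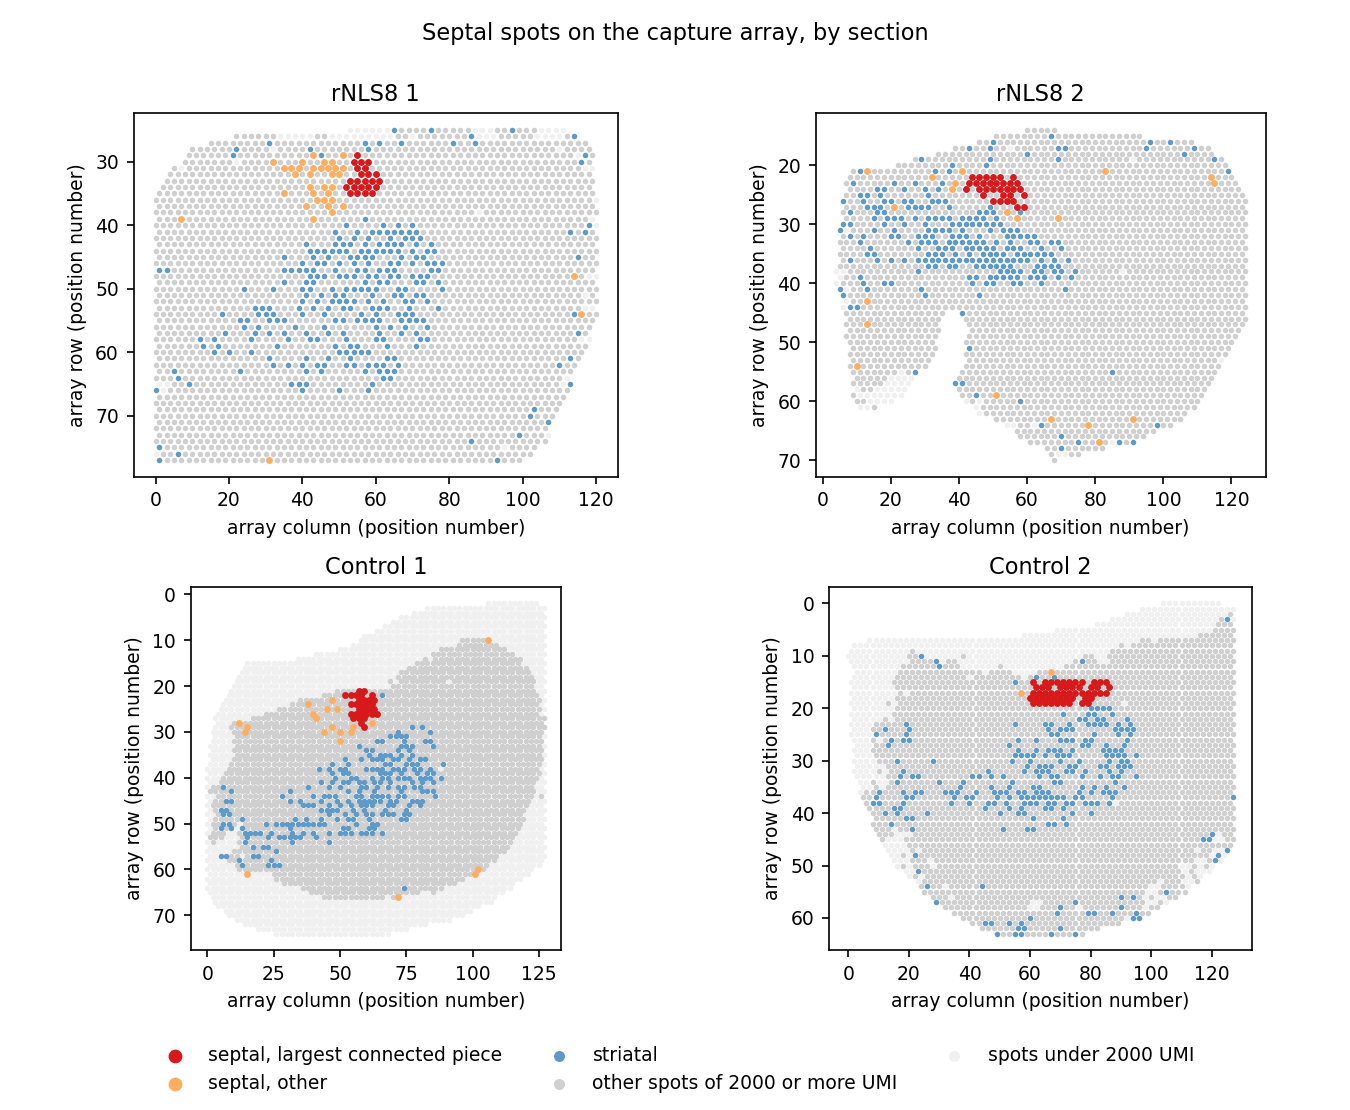
Position of spots on the capture array (column and row numbers) in the 2 rNLS8 and the 2 Control sections, with septal spots in the largest piece, other septal spots, striatal spots, other spots of at least 2000 UMI and spots under 2000 UMI. The largest piece holds 23 and 32 spots in the rNLS8 sections and 31 and 53 in the Control sections, and the other septal spots lie around it and along the tissue edge.

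A further feature was that the scattered spots carried meningeal genes, most of all in rNLS8 2. The 11 genes on the meningeal list summed to 17.4 and 72.0 per 10000 UMI in rNLS8 septal spots and to 17.5 and 3.08 in control septal spots. Within pieces of at least 5 spots the sums were 8.28 and 9.58 in rNLS8 and 6.51 and 3.05 in control sections. Outside those pieces they were 62.2 and 183 in rNLS8 and 33.9 and 4.63 in control sections. Control 2 stood apart in another way, with 37.0 per 10000 UMI of myelin genes in septal spots against 104, 118 and 124 in rNLS8 1, rNLS8 2 and Control 1. Results are therefore also given for pieces of at least 5 spots, a limit set after these values were seen.

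The label was checked against markers that the rule had not used. All 10 GABAergic genes were higher in septal than in remaining spots in all 4 sections. Striatal spots, described below, share that trait. The GABAergic list summed to 13.4 and 8.92 per 10000 UMI in rNLS8 septal spots and 11.8 and 15.9 in control septal spots, against 9.70, 9.96, 9.58 and 9.39 in the striatal spots of rNLS8 1, rNLS8 2, Control 1 and Control 2, so it was higher in the striatal spots of rNLS8 2. Of 12 further septal markers with at least 3 counts in every section, 10 were higher in all 4, beside 18.5% of all 8238 genes measured to that depth. All 7 measured glutamatergic genes were lower in all 4 sections than in the remaining spots, and their list in rNLS8 2 was 27.5 in septal and 24.7 in striatal spots. No share of all genes lower in all 4 sections was computed to set beside the glutamatergic count. The rule took the spots, so these counts describe them and test nothing.

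Zic2, a relative of Zic1, was higher in septal spots of every section. It had 106 and 89.6 CPM in rNLS8 septal spots and 69.1 and 125 CPM in control septal spots, against 16.6, 20.3, 12.8 and 15.1 CPM in the remaining spots of rNLS8 1, rNLS8 2, Control 1 and Control 2. The peptide neurotensin (Nts) was higher by 2.04 and 3.16 log2 units in the rNLS8 sections and by 1.19 and 2.63 in the control sections.

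Receptors and neuropeptides differed in both directions. Of 16 neuropeptide and receptor genes with at least 3 counts in every section, 4 were higher and 6 lower in all 4 sections. Of 14 such monoamine, cholinergic and steroid receptor genes, 6 were higher and 4 lower. Over all 8238 genes of that depth 18.5% were higher in all 4. The share lower in all 4 was not computed, so the counts of lower genes have no such reference. The summed neuropeptide and receptor list was lower in septal than in remaining spots of every section, with log2 ratios of -0.55 to -0.24. Glp1r, the receptor of glucagon-like peptide 1, was higher by 4.22 and 3.78 log2 units in the rNLS8 sections and by 3.31 and 4.08 in the control sections, on 26, 7, 11 and 16 UMI. Crhr2, a receptor of the urocortin peptides, had 3 and 3 UMI in rNLS8 septal spots and 2 and 35 in control septal spots, so its level rests mainly on Control 2. The serotonin receptor gene Htr1a was higher by 1.48 to 2.00 log2 units in all 4 sections. The vasopressin receptor gene Avpr1a had 0 UMI in septal and remaining spots of every section, so it separates nothing here. Peptides of other forebrain interneurons were lower. Npy had log2 ratios of -1.28 and -0.84 in rNLS8 and -0.90 and -1.86 in control sections, and Cck was lower in all 4 as well.

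Not every list separated the spots. The septal markers together summed to 15.8 and 11.2 per 10000 UMI in rNLS8 septal spots and 14.7 and 19.3 in control septal spots, against 11.6, 10.6, 10.7 and 11.8 in the remaining spots in the same order of sections. In rNLS8 2 the 2 values were close, and Sst, the abundant peptide on that list, had a log2 ratio of -0.76 there. The marker list of the hypothalamus and preoptic area was also higher in septal spots, at 49.8 and 32.8 per 10000 UMI in rNLS8 and 54.1 and 57.2 in control sections, against 19.98 to 27.8 in the remaining spots. Of the cholinergic markers of the medial septum, Chat had 9 and 0 UMI in rNLS8 and 3 and 7 UMI in control septal spots. The whole list of the medial septum and diagonal band was higher in septal spots, at 4.62 and 2.22 per 10000 UMI in rNLS8 and 3.51 and 3.47 in control sections. In the remaining spots it was 3.56 and 1.67 in rNLS8 and 2.34 and 2.80 in control sections. Of its 3 genes with at least 3 counts in every section, Lhx8 and Ecel1 were higher in all 4 and Pvalb was lower. Log2 ratios of septal over remaining spots for the hypothalamus and preoptic list were 0.84 and 0.72 in rNLS8 and 0.96 and 1.43 in control sections. For the septal markers they were lower, at 0.46 and 0.08 in rNLS8 and 0.46 and 0.72 in control sections. The thalamus list was also higher in septal spots, with 1.02 and 0.66 in rNLS8 and 0.39 and 0.98 in control sections. These values do not separate lateral septum from medial septum or from the preoptic area.

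Over all genes, 32 of the 5806 with at least 20 CPM in septal spots of every section were at least 2-fold higher there in all 4 sections. At least 2-fold lower were 7 of the 6462 with at least 20 CPM in the remaining spots. The largest lead was that of Lbhd2, with 207 and 81.5 CPM in rNLS8 septal spots and 155 and 337 CPM in control septal spots, against 3.37 to 10.6 CPM in the remaining spots. Rasd1, which encodes a small G protein, had 227 and 206 CPM in rNLS8 and 316 and 753 CPM in control septal spots, against 23.9 to 56.1 CPM elsewhere. Prkcd, a protein kinase C on the thalamus list, had 247 and 155 CPM in rNLS8 and 78.9 and 202 CPM in control septal spots, against 14.1 to 24.99 CPM elsewhere.

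The next genes, each higher in septal spots in all 4 sections, included Pnoc, the precursor of nociceptin, by 1.85 to 2.97 log2 units. Dlk1, a Notch-like ligand, was higher by 1.97 and 2.72 log2 units in rNLS8 and by 1.58 and 3.52 in control sections. Hap1, the huntingtin-associated protein gene, was higher by 1.51 to 2.41, the protocadherin gene Pcdh8 by 1.39 to 2.50, the transcription factor gene Dlx1 of GABAergic neurons by 1.36 to 2.67 and the calcium channel subunit gene Cacna2d2 by 1.16 to 2.17. St8sia6, which encodes a sialyltransferase, was higher by 2.84 and 2.67 in rNLS8 and by 3.23 and 2.36 in control sections. Baiap3, Arhgap36, Cpne7, Fibcd1, Col25a1, Ecel1, Pip5k1b, Tmem255a, Ndst4, Vat1l, Fzd1 and Zfp423 made up the rest, with lowest differences of 1.18 to 1.75. Hap1 and Baiap3 are on the list of the hypothalamus and preoptic area, and Fibcd1 is on that of the hippocampus.

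Genes of cortical excitatory neurons led the lower side. Slc17a7, the vesicular glutamate transporter of the cortex, had 788 and 1705 CPM in rNLS8 septal spots and 1128 and 551 CPM in control septal spots, against 2317, 3344, 3462 and 2343 CPM in the remaining spots. The transcription factor genes Neurod2, Neurod6 and Tbr1 were lower in all 4 sections, with log2 ratios of -2.21 to -0.96. Prdm8, Cckbr, Scn4b, Cpne9, Ypel2, Syndig1l, Chrm1, Cacnb3 and Vxn were lower as well, with log2 ratios of -2.98 to -0.94. The striatal list summed to 29.9 and 20.8 per 10000 UMI in rNLS8 and 30.02 and 27.1 in control septal spots, against 56.7, 30.1, 59.96 and 90.2 in the remaining spots.

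**Figure D2:**
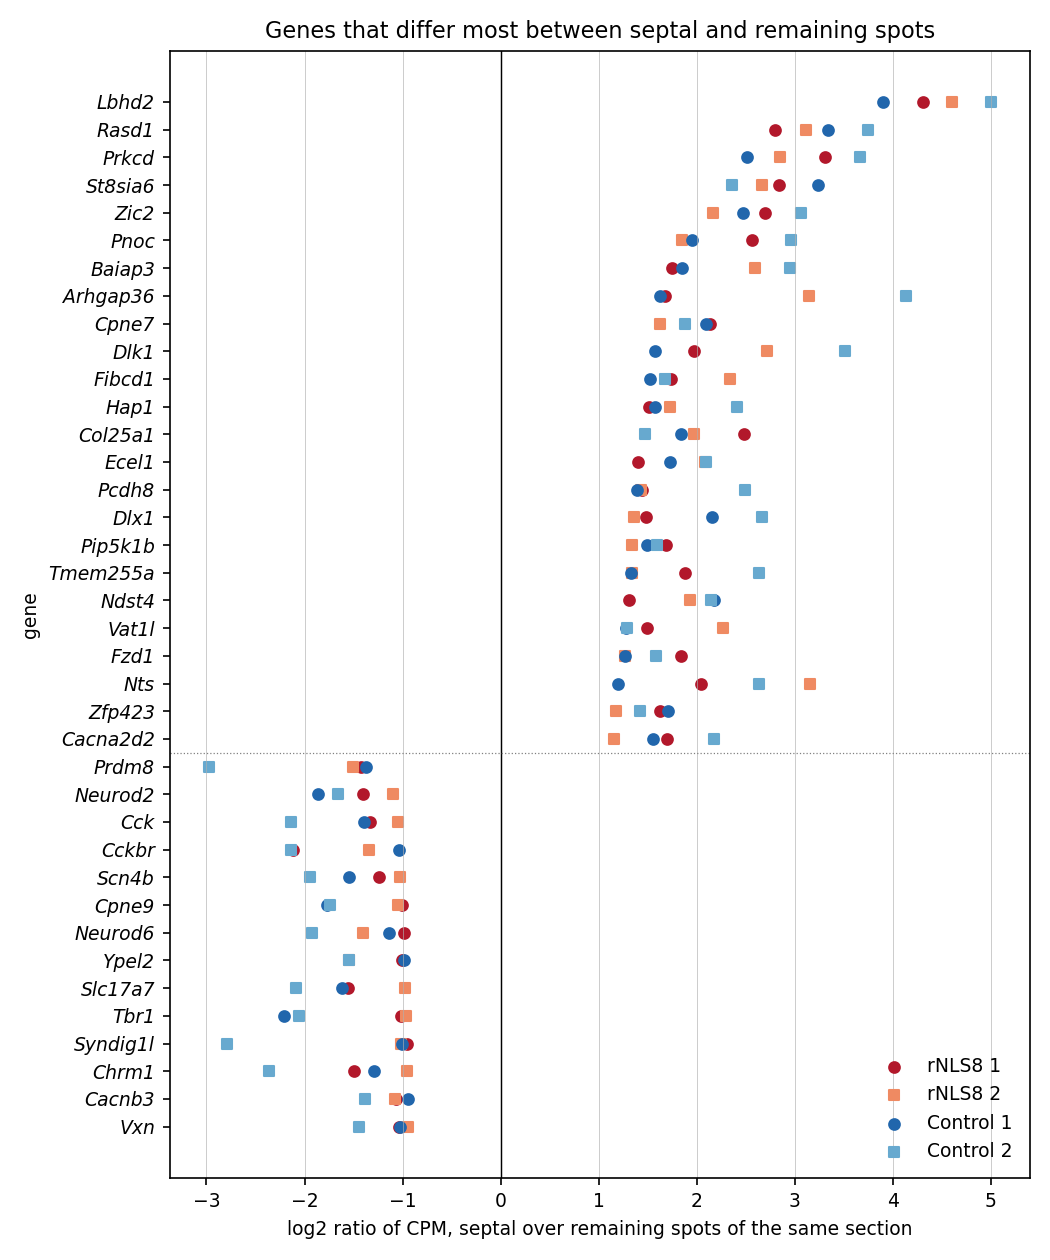
Log2 ratio of CPM in septal over remaining spots of the same section (x axis) for 24 of the 25 genes with the highest and 14 of the 15 with the lowest ratios shared by all sections (y axis), with 1 point per section. Lbhd2 leads with ratios of 3.90 to 5.00, and the lower genes lie between -2.98 and -0.94.

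Within 4 array steps of the largest piece, ependymal and striatal genes reached levels above those inside it. Ependymal genes, which mark the ventricle wall, stood at 1.46 and 1.10 per 10000 UMI inside the piece in rNLS8 and at 1.97 and 2.01 in control sections. They were highest 4 and 3 array steps outside it in the rNLS8 sections, at 7.18 and 7.97, and 2 and 1 steps outside in the control sections, at 10.0 and 16.7. Striatal genes lay at 20.7 to 31.6 inside the piece and reached 50.4 and 50.3 at 4 steps in rNLS8 and 68.4 and 115 in control sections. Each of these rings held 24 to 47 spots.

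**Figure D3:**
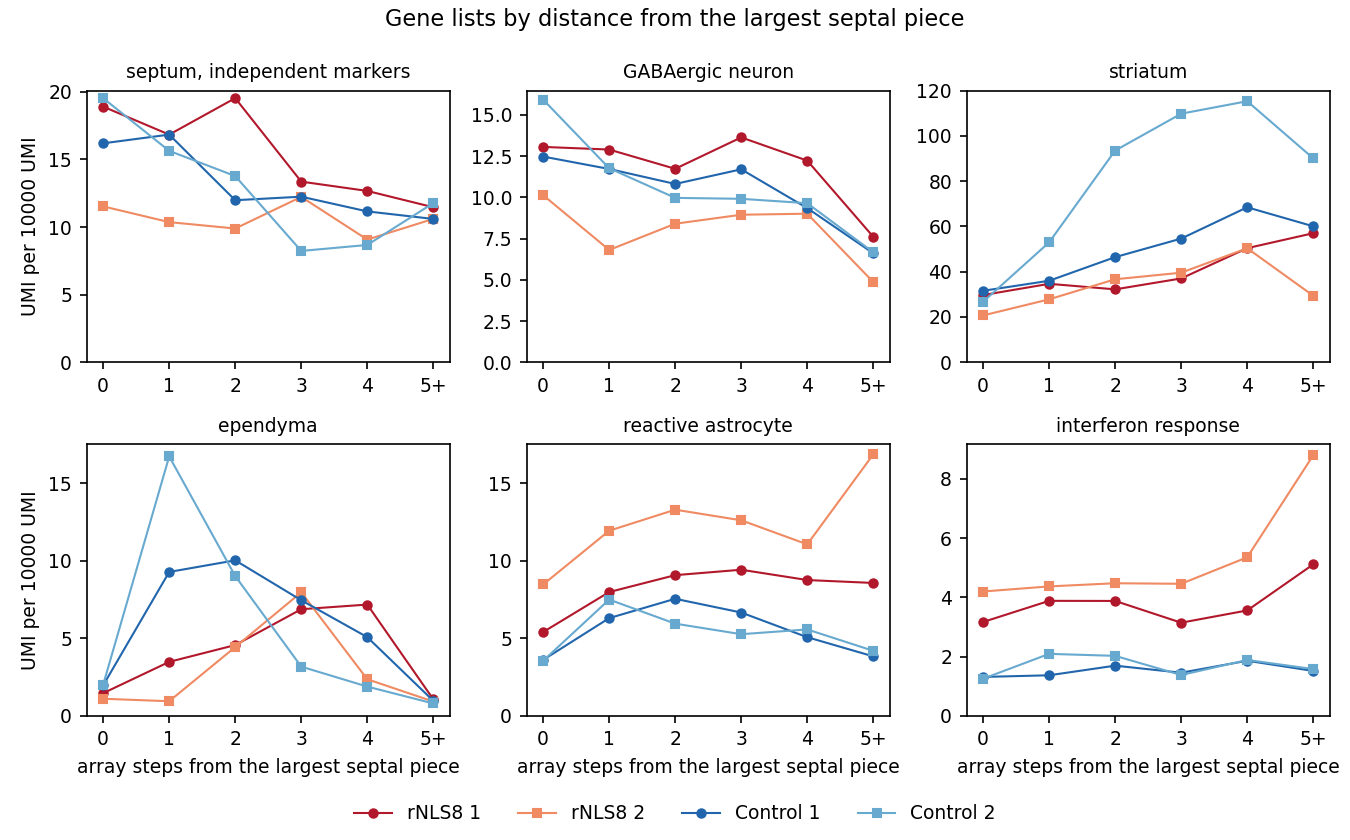
UMI per 10000 UMI of 6 gene lists (y axes) by array steps from the largest septal piece (x axes, 0 is the piece itself), with 1 line per section. Among the distances shown, with 5 or more steps pooled, ependymal genes are highest 1 to 4 steps outside the piece. Striatal genes are low inside it. The interferon list in rNLS8 is 3.17 and 4.20 inside and 5.11 and 8.79 at 5 or more steps, against 1.25 to 1.58 at both places in Control.

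For the effect of the rNLS8 genotype within the septum, the 4 septal sums were compared with edgeR's quasi-likelihood test, and levels are given as CPM after trimmed-mean scaling. Among the genes with the smallest p, Bst2, B2m, Ctss and Ctsd had higher values in both rNLS8 sections than in both control sections, and Fosb, Prkcb and Calb1 had lower ones. No gene passed an adjusted p of 0.05. The test called 0 of 7111 genes, or 0%, with a lowest adjusted p of 0.585, and DESeq2 also called 0. At an unadjusted p under 0.05 stood 482 genes, or 6.78%, 261 higher (3.67%) and 221 lower (3.11%). Leaving out a section, so that the lone section was assumed to vary like the others, gave 37 called genes without rNLS8 1, 0 without rNLS8 2, 189 without Control 1 and 253 without Control 2. The same test called 0 of 13403 genes, or 0%, in the remaining spots, with 2103, or 15.7%, at an unadjusted p under 0.05, while DESeq2 called 535. All genes below are given as values that did not pass.

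Bst2, the interferon-induced gene of the antiviral membrane protein tetherin, had the smallest p on the higher side, with 51.8 and 79.0 CPM in rNLS8 septal spots against 3.52 and 8.93 CPM in control septal spots. Both rNLS8 sections lay above both control sections, with a log2 fold change of 3.15 (SE 0.56, adjusted p = 0.585), and it was 2.35 in pieces of at least 5 spots. B2m, the shared subunit of MHC class I, had 166 and 356 CPM in rNLS8 and 63.4 and 71.4 CPM in control septal spots, with a log2 fold change of 1.91 (SE 0.39, adjusted p = 0.585). In the remaining spots B2m had 299 and 438 CPM in rNLS8 and 41.1 and 68.7 CPM in control sections, a log2 fold change of 2.74.

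Only 4 of the 30 interferon genes in the files passed the filter on low counts, and in each of the 4 both rNLS8 sections lay above both control sections, beside 20% of all tested genes higher without overlap. Passing needed enough counts in septal spots, and genes low in control could pass through rNLS8 alone. The 4, Ifi27, Bst2, Oasl2 and Irf9, had a median log2 fold change of 2.20, beside 0.01 over all tested genes. Oasl2, of the oligoadenylate synthetase family, had 29.0 and 79.0 CPM in rNLS8 and 10.6 and 3.57 CPM in control septal spots. All 30 genes together summed to 3.46 and 7.21 per 10000 UMI in rNLS8 and to 1.41 and 1.25 in control septal spots.

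Most interferon genes that were not tested had few counts. Psmb8, an immunoproteasome subunit gene, had 10 and 7 UMI in rNLS8 and 0 and 1 in control septal spots. Rtp4 had 8 and 15 UMI in rNLS8 and 2 and 1 in control septal spots, and the chemokine gene Cxcl10 had 4 and 7 UMI in rNLS8 and 0 and 0 in control septal spots. The interferon sum in rNLS8 septal spots was below that in the remaining spots, where it was 5.07 and 8.50, against 1.52 and 1.60 in control sections. Within pieces of at least 5 spots it was 3.08 and 4.20 in rNLS8 and 1.31 and 1.25 in control sections.

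Of 16 tested genes on the list of disease-associated microglia, 11 were higher without overlap and none lower. Over all tested genes 20% were higher and 19% lower without overlap. Here too, genes low in control could pass the filter through rNLS8 alone. The list had a median log2 fold change of 1.02 in septal spots, 0.64 in pieces of at least 5 spots and 1.11 in the remaining spots. Ctss, a cathepsin of microglia, had 133 and 167 CPM in rNLS8 and 21.1 and 55.4 CPM in control septal spots, a log2 fold change of 1.83 (SE 0.40). Ctsd, the lysosomal protease cathepsin D, had 178 and 268 CPM in rNLS8 and 70.4 and 102 CPM in control septal spots. Trem2, the microglial lipid receptor, had 24.8 and 25.4 CPM in rNLS8 and 7.04 and 12.5 CPM in control septal spots, on 12, 9, 2 and 7 UMI.

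Among 8 tested genes of complement and antigen presentation, a list that shares B2m and C1q genes with the microglial one and C4b with the astrocyte one, 6 were higher without overlap, beside 20% of all tested genes, and none lower. The files held 22 genes of this list, and those low in control could pass the filter through rNLS8 alone. The median log2 fold change of the tested genes was 1.30 over all septal spots and 0.76 in pieces of at least 5 spots. The summed list was 8.35 and 17.3 per 10000 UMI in rNLS8 and 6.53 and 3.79 in control septal spots, and in pieces of at least 5 spots 7.75 and 10.7 in rNLS8 and 5.47 and 3.81 in control sections. In the scattered spots of rNLS8 2, which were rich in meningeal genes, it was 29.1. Cd74, the MHC class II invariant chain, overlapped between groups and had a log2 fold change of 1.88 over all septal spots and 0.35 in pieces of at least 5. C1qa and C1qc, chains of the first complement component, had log2 fold changes of 1.02 and 1.59, and 1.02 and 1.72 in pieces of at least 5 spots. Homeostatic microglial genes had a smaller median, 0.72 over 4 tested genes. Of these 4, 3 were higher without overlap, Csf1r and Aif1 among them, beside 20% of all tested genes. The files held 15 genes of this list, under the same limit of the filter, and P2ry12, Cx3cr1 and Tmem119 were not tested. P2ry12 had 10 and 6 UMI in rNLS8 and 5 and 10 in control septal spots. Cx3cr1 had 8 and 8 against 5 and 6, and Tmem119 had 7 and 10 against 2 and 6. The summed homeostatic list was 2.96 and 4.93 per 10000 UMI in rNLS8 and 2.76 and 2.25 in control septal spots, so rNLS8 1 lay close to Control 1. No gene of border macrophages and leukocytes passed the filter. Lyve1, Cd8a, Ms4a1 and Cd79a had 0 UMI in the septal spots of all 4 sections, while Pf4 had 7 and 6 UMI in rNLS8 and 0 and 5 in control septal spots. The list summed to 0.26 and 0.46 per 10000 UMI in rNLS8 and 0.16 and 0.20 in control septal spots. Within pieces of at least 5 spots it was 0.17 and 0.17 in rNLS8 and 0.16 and 0.21 in control sections.

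Gfap, the intermediate filament of reactive astrocytes, had 290 and 652 CPM in rNLS8 and 197 and 120 CPM in control septal spots, a log2 fold change of 1.60 (SE 0.40, adjusted p = 0.703). Of the 6 tested genes on the reactive astrocyte list, Gfap, C4b and S100a6 were higher without overlap, beside 20% of all tested genes. Vim, Hspb1 and Stat3 overlapped. The files held 23 genes of this list, and again those low in control could pass the filter through rNLS8 alone. The list's sum was highest in rNLS8 2, at 5.95 and 12.6 per 10000 UMI in rNLS8 and 4.86 and 3.50 in control septal spots. Of 21 tested lysosomal genes, a list that shares members with the microglial one, 11 were higher without overlap and 10 overlapped. Over all tested genes 20% were higher without overlap. The lysosomal median was 0.28. The same limit of the filter held for this list, of which the files held 26 genes.

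**Figure D4:**
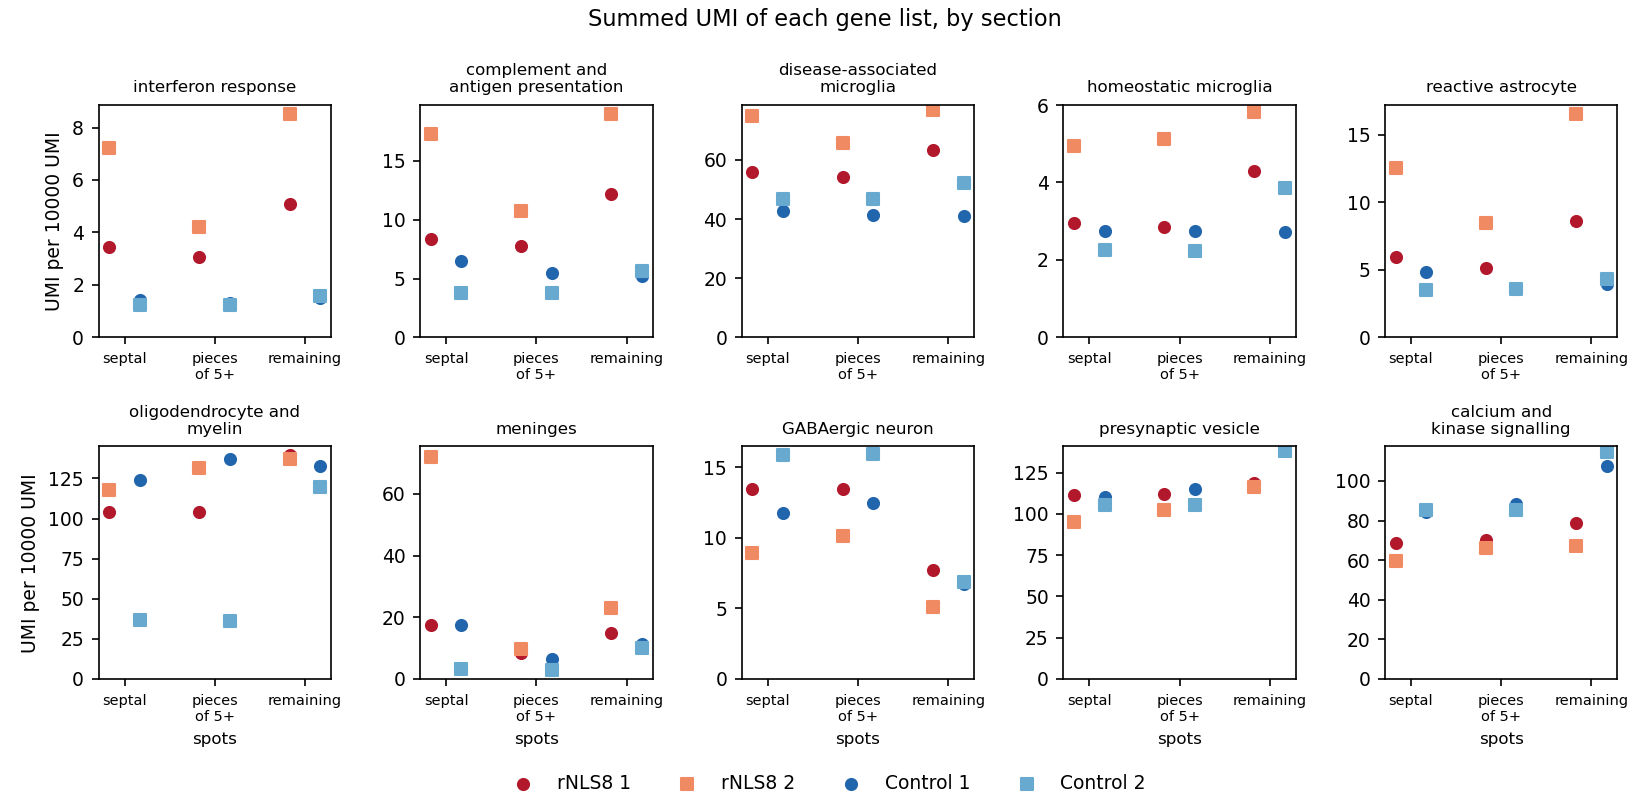
UMI per 10000 UMI of 10 gene lists (y axes, from 0) in septal spots, septal spots in pieces of at least 5, and remaining spots, with 1 point per section and rNLS8 to the left of Control. The interferon list is higher in both rNLS8 sections at each place, meningeal genes reach 72.0 in the septal spots of rNLS8 2, and myelin genes are at 37.0 in the septal spots of Control 2.

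Other genes among those with the 10 lowest p on the higher side belonged to no immune list. Pcp4l1, a relative of the calmodulin regulator Pcp4, had 234 and 189 CPM in rNLS8 and 84.5 and 76.8 CPM in control septal spots (log2 fold change 1.40, SE 0.27). Enpp2, the lysophospholipase autotaxin, had 215 and 223 CPM in rNLS8 and 102 and 76.8 CPM in control septal spots (1.32, SE 0.27). Pdrg1 had a log2 fold change of 1.29 and the nuclear envelope gene Sun2 one of 1.25, each without overlap. Zfp180 had 27 UMI over both rNLS8 sections and 1 UMI over both control sections, a ratio per UMI of 27.8 with an exact 95% counting interval of 4.59 to 1140.2.

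Ndrg1, a gene of oligodendrocytes and myelinating cells, had 53.8 and 110 CPM in rNLS8 and 14.1 and 19.6 CPM in control septal spots. In pieces of at least 5 spots the values were 50.9 and 49.5 CPM in rNLS8 and 17.9 and 18.4 CPM in control sections, a log2 fold change of 1.44 there against 2.17 over all septal spots. In the remaining spots it had 55.1 and 48.1 CPM in rNLS8 and 45.2 and 58.1 CPM in control sections. Of 11 tested myelin genes 5 were higher without overlap and none lower, beside 20% higher and 19% lower over all tested genes. Their median was 0.61. The low myelin sum of Control 2, given above, moved with this count, and its part in it was not tested.

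On the lower side, Fosb had the smallest p. This transcription factor of the Fos family, which neurons induce by activity, had 20.7 and 22.6 CPM in rNLS8 and 77.5 and 114 CPM in control septal spots, a log2 fold change of -2.17 (SE 0.40, adjusted p = 0.585). In the remaining spots it had 34.3 and 28.1 CPM in rNLS8 and 33.6 and 33.3 CPM in control sections. Fosb was thus above the remaining spots in the septal spots of both control sections and below them in those of both rNLS8 sections. In pieces of at least 5 spots its log2 fold change was -2.32.

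Genes of the activity-regulated list differed in both directions. Of its 17 tested genes, Fosb, Fosl2, Egr4, Nr4a3 and Dusp4 were lower without overlap, beside 19% of all tested genes. Nr4a1, Dusp1 and Dusp6 were higher, beside 20% of all tested genes, and the other genes overlapped. The median was -0.19. Nr4a3, a nuclear receptor gene, had 29.0 and 64.9 CPM in rNLS8 and 211 and 98.2 CPM in control septal spots. Egr1 and Arc, well known for their induction by activity, had log2 fold changes of -0.19 and 0.21.

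Of 18 tested calcium and kinase signalling genes, 10 were lower and 3 higher without overlap, beside 19% lower and 20% higher over all tested genes. The median was -0.41 in septal spots, -0.30 in pieces of at least 5 spots and -0.57 in the remaining spots. Prkcb, the beta isoform of protein kinase C, had 313 and 293 CPM in rNLS8 and 813 and 623 CPM in control septal spots (log2 fold change -1.24, SE 0.24). Calb1, the calcium buffer calbindin, had 178 and 116 CPM in rNLS8 and 331 and 564 CPM in control septal spots (-1.61, SE 0.33). The remaining spots had similar values for both, with log2 fold changes of -1.50 and -1.47. Camk2a, on the same list, overlapped between the groups.

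Of 7 tested monoamine, cholinergic and steroid receptor genes, 4 were lower without overlap and 1 was higher, beside 19% lower and 20% higher over all tested genes. Their median log2 fold change was -0.63. The adrenergic receptor gene Adra2a had 184 and 79.0 CPM in rNLS8 and 187 and 227 CPM in control septal spots, so rNLS8 1 lay close to Control 1. The nicotinic subunit gene Chrnb2 and the cannabinoid receptor gene Cnr1 were also among the lower ones, with log2 fold changes of -1.02 and -0.39, and the nicotinic subunit gene Chrna7 was the higher one, with 0.74.

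The other genes lowest in p were lower without overlap too. Gda, the guanine deaminase gene, had 205 and 167 CPM in rNLS8 and 370 and 572 CPM in control septal spots. Ptpn5, the striatum-enriched phosphatase STEP, had 470 and 412 CPM in rNLS8 and 747 and 1097 CPM in control septal spots. Twf2, Scg5 and Negr1 had log2 fold changes of -1.25, -1.03 and -0.92. Stac had 8.28 and 2.82 CPM in rNLS8 and 38.7 and 57.1 CPM in control septal spots.

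**Figure D5:**
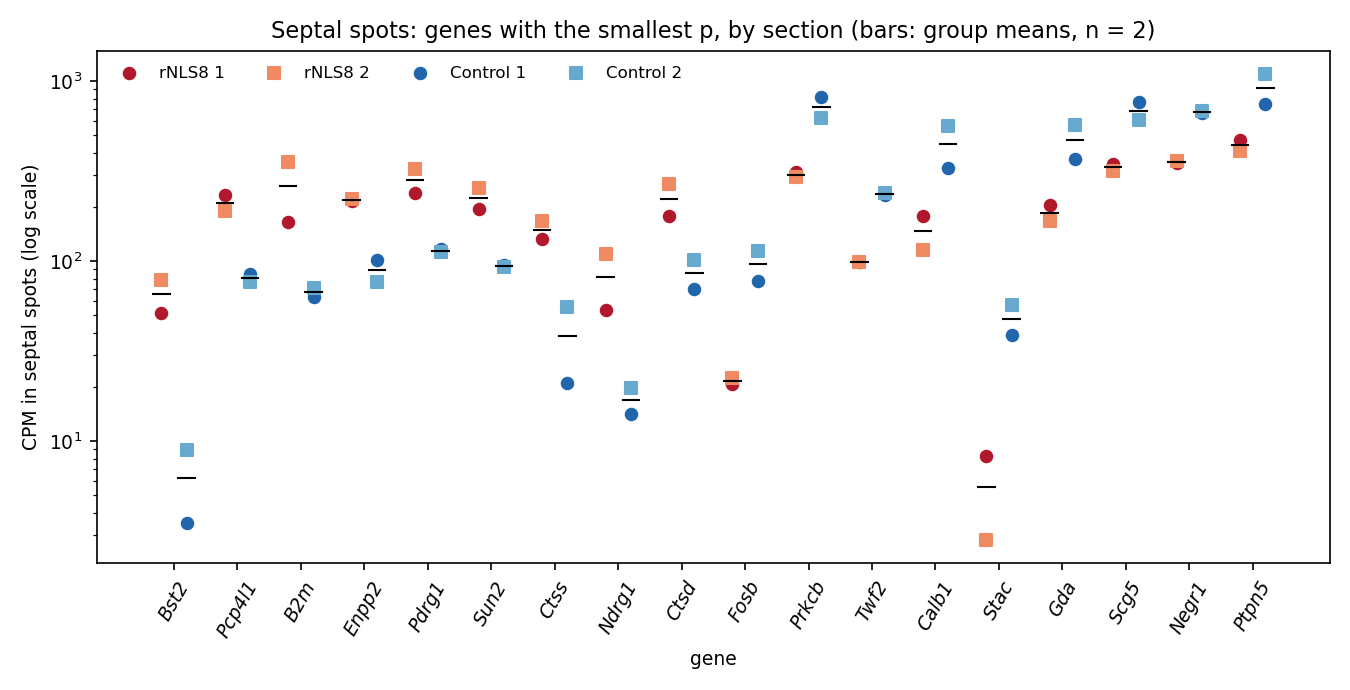
CPM in septal spots (log scale) of 18 genes, from the 10 with the smallest p in each direction (Zfp180, at 0 in Control 2, is left out), with 1 point per section, rNLS8 to the left of Control, and bars at the group means of 2 sections. Bst2 to Ctsd are higher in both rNLS8 sections and Fosb to Ptpn5 lower, and no gene passed the adjusted threshold.

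Of the 9 tested septal markers none was higher without overlap and 3 were lower, beside 19% of all tested genes lower, with a median log2 fold change of -0.22 and a range of -0.74 to 0.17. Sst had 878 and 432 CPM in rNLS8 and 824 and 959 CPM in control septal spots. Of 9 tested GABAergic genes 3 were lower and none higher, with a median of -0.39, and Gad2, which makes GABA, had 457 and 282 CPM in rNLS8 and 451 and 502 CPM in control septal spots. Of 7 tested glutamatergic genes 4 were higher and 1 lower, beside 20% higher and 19% lower over all tested genes. Their median was 0.65 in septal spots and -0.02 in the remaining spots. The section rNLS8 2, whose septal spots had the lowest sum of septal markers, had the lowest Gad2 and the highest Slc17a7 of the 4.

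Counts of synaptic and axonal genes without overlap are read beside the 20% higher and 19% lower over all tested genes. Of 20 tested presynaptic vesicle genes 3 were higher and 4 lower, with a median of -0.17 against -0.42 in the remaining spots. Cplx1, a complexin of the release machinery, had 2134 and 1764 CPM in rNLS8 and 870 and 1130 CPM in control septal spots, while Snap25 overlapped. Of 17 tested genes of GABA receptors and synthesis 2 were higher and 5 lower, with a median of -0.29. Of 18 neurofilament and axon genes 2 were higher and 5 lower, with a median of -0.07, and of 13 tested neuropeptide and receptor genes 2 were higher and 2 lower.

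Whether the genotype effect differed between septal and remaining spots was fitted on 8 sums with the section as a block. By edgeR's default fit 41 of 13081 genes, or 0.313%, had a different effect, 25 with a higher and 16 with a lower log2 fold change in septal spots. That fit estimated no gene-to-gene variation of the dispersion. With edgeR's bias-adjusted deviances, an alternative added after the default was seen, 0 genes passed, with a lowest adjusted p of 0.838, and DESeq2 also called 0. At an unadjusted p under 0.05 the default fit had 840 genes, or 6.42%. It called 22 genes without rNLS8 1, 2 without rNLS8 2, 201 without Control 1 and 4 without Control 2.

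The genes with the smallest p on the higher side included meningeal ones. Ptgds, a prostaglandin synthase of the meninges, had 1468 and 5901 CPM in rNLS8 and 1359 and 150 CPM in control septal spots, so the groups differed through rNLS8 2 and Control 2. Its difference from the remaining spots was 1.76 log2 units by the default fit (SE 0.20, adjusted p = 7.65e-15), 3.39 without Control 1, 0.56 without Control 2 and 0.68 in pieces of at least 5 spots (adjusted p = 0.204). Mgp, Myoc and Ccn3 had differences of 2.09, 2.098 and 1.72, and each was highest in rNLS8 2. Of the 41 genes 3, Ptgds, Mgp and Col1a2, were on the meningeal list, and none of that list was among the 22 genes called in pieces of at least 5 spots.

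Fosb and Nr4a3 differed in both sets of spots by the default fit. The difference of Fosb was -2.14 over all septal spots (SE 0.41, adjusted p = 0.000419) and -2.34 in pieces of at least 5 spots (adjusted p = 0.00137). That of Nr4a3 was -1.49 (SE 0.31, adjusted p = 0.00263) and -1.66 (adjusted p = 0.00477). With bias-adjusted deviances neither passed (adjusted p = 0.838 for each over all septal spots). The 41 and 22 genes shared 16, which is 39.0% of the 41 and 72.7% of the 22. Among the shared genes were Ppp1r1a, a phosphatase inhibitor gene, Ppp1r1b, the striatal phosphoprotein DARPP-32, and the neurofilament gene Nefl, all with a higher effect in septal spots, and Cotl1, Gng4, Stac2, Sox1 and Nnat with a lower one.

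For genes of the immune response the default fit gave these differences between septal and remaining spots. Bst2 differed by 0.29 log2 units (SE 0.64) and Gfap by -0.34 (SE 0.22), neither past an adjusted p of 0.05, and B2m by -0.84 (SE 0.28, adjusted p = 0.249). 

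Against striatal spots, taken as the top 10% of spots by Rgs9, Adora2a, Drd1 and Gpr6 and 1089 in number, 0 of 10029 genes, or 0%, had a different effect by the default fit. DESeq2 also called 0, and 719 genes, or 7.17%, had an unadjusted p under 0.05. The default fit called 60 genes without rNLS8 1, 1 without rNLS8 2, 56 without Control 1 and 0 without Control 2. The smallest p on the higher side belonged to Dbndd2, Ndrg1, Pradc1, Ppp1r1a and Lynx1, and on the lower side to Fosb, Resp18, Fosl2, Gng4 and Kcnip1. Fosb differed by -2.22 log2 units (SE 0.43, adjusted p = 0.331) and Dbndd2 by 1.49 (SE 0.25, adjusted p = 0.206).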

How the data were processed

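The authors deposited 1 matrix of whole-number UMI counts for each section, not normalized, from Space Ranger (spaceranger 2.1.0 per the file headers, genome mm10 per the submitters' processing notes). The probe set is not given in the sources used here. Each of the 4 sections had 17627577 to 28056089 UMI over 2656 to 3962 spots under tissue, and the files list 19465 genes. Spots are not replicates, so counts were summed per section. Counting floors and intervals cover counting error only. Of the spot barcodes, 1827 occur in all 4 sections, since array positions carry fixed barcodes.

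Sums were compared with edgeR 4.0.16 in R 4.3.3, by quasi-likelihood F tests after trimmed-mean scaling and the filter filterByExpr at its defaults. P-values were adjusted by Benjamini and Hochberg's method over every gene that passed it. DESeq2 1.42.0 was an alternative. Differences of effect were fitted as interactions with section as a block. Simulated sums were drawn with the same dispersion for every gene. On these the septal comparison recovered 30.3% of 2-fold and 85.9% of 4-fold changes, with 7 unchanged genes called of 7146 tested. The data need not vary in that way, so these shares do not give the power of the test on them. Same-numbered sections share a number and a labelled sex, which the Y-linked reads of rNLS8 1 go against, and were not taken as pairs: their deviations from the group means correlated at -0.20 over 7111 genes. Counts of the 2 sections of a group differed beyond sampling noise, with a chi-square per degree of freedom of 2.48 in rNLS8 and 4.21 in Control.

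Named genes were the 10 with the smallest p in each direction in septal spots, the 4 most abundant tested members of each of 32 lists, the 5 with the smallest p in each direction for each difference, the 25 highest and 15 lowest shared ratios of septal over remaining spots, and the selecting, Y-linked and Tardbp genes. Some genes that these rules name are not reported here. Other genes in the text were chosen after their values were seen. The spots, lists and named groups were chosen with earlier results of these data known. Alternatives changed the share and depth of spots, each selecting gene, compactness, normalization, the filter, depth by thinning, the replicate block and each section.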

Additional observations from a re-analysis of the deposited data

Results flagged for a closer look

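By edgeR's default interaction test the rNLS8 effect differed between septal and remaining spots for the 10 genes named by this difference. They were chosen as the 5 with the smallest p of that test in each direction, so their passing adds no support. Genes named by other rules passed too, Enpp2, Stac, Dbndd2, Pradc1, Ppp1r1a and Fosl2 among them. Those rules drew on the same septal sums, so this adds no support either. None of the 10 passed with bias-adjusted deviances (adjusted p = 0.838 for each) or DESeq2. On the log2 scale, septal minus remaining, the difference was 1.76 for Ptgds, 1.72 for Ccn3, 2.098 for Myoc, 2.17 for Ndrg1 and 2.09 for Mgp. It was -2.14 for Fosb, -0.99 for Cotl1, -1.49 for Nr4a3, -1.02 for Gng4 and -1.05 for Stac2. In pieces of at least 5 septal spots the differences of Ptgds, Ccn3 and Ndrg1 were 0.68, 0.42 and 1.48 and those of Fosb, Nr4a3 and Stac2 -2.34, -1.66 and -1.20. Meningeal genes moved with the first of these groups of genes, as given above, and their part in it was not tested.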

How the results depend on the processing

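The number of genes called between rNLS8 and control in septal spots, 0 as reported, was 64 without a filter on low counts, 1 under the rule without Zic1 and 0 under the other settings that kept all sections and the design, including DESeq2. It ranged from 0 to 253 over fits without 1 section, from 0 to 205 over those with bias-adjusted deviances (71 without rNLS8 1, 76 without Control 1) and from 0 to 222 over those in pieces of at least 5 spots (111 without Control 1). With the replicate block it was 0, and with the crossed pairing, added after the data were seen, 1. In the remaining spots, 0 as reported became 535 by DESeq2, 288 without a filter, 182 with the replicate block and 0 to 1582 without 1 section. The count of different effects between septal and remaining spots, 41 as reported, was 0 by DESeq2 and 0 with bias-adjusted deviances, also in pieces of at least 5 spots. It was 66 with RLE factors, 8 with the replicate block, 2 in the top 1% and 1 in the top 4% of spots, 3 under the rule without Zic1, 14 in the largest piece, 22 in pieces of at least 5 spots, and 2 to 201 without 1 section. Between septal and striatal spots, 0 as reported became 51 without a filter, 25 with the replicate block, 8 in the top 1% of spots, 2 at a minimum of 4000 UMI, 1 in the largest piece, 2 in pieces of at least 5 spots and 0 to 60 without 1 section. The share of septal spots in the largest piece was 12.4% under the rule without Zic1. The 39 genes at least 2-fold apart between septal and remaining spots were 16 under that rule, 62 in pieces of at least 5 spots and 43 to 97 without 1 section. The differences of Ptgds and Ccn3 turned to -0.21 and -0.0912 under the rule without Zic1, and that of Stac2 ranged from -1.71 without Control 1 to 0.19 without Control 2. The causes were not tested. Septal sums of 304809 to 591489 UMI limited the test to 7111 genes, and each group had 2 sections.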
